A study of Rattus norvegicus with 30 samples.

Results

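Transcripts of 39 genes of the DNA replication machinery were followed in rat testes during pubertal development and in testis explants kept in organotypic culture. The genes were taken by symbol, by matching the Entrez Gene identifiers of the 17322 genes with deposited values to a RefSeq gene table, and all 39 were found. They cover the licensing of replication origins (4 genes), the MCM helicase (6), partners of the helicase (6), polymerases and primase (8), the sliding clamp and its loader (6), the joining of Okazaki fragments (2), the single-strand binding protein RPA (3) and the supply of deoxynucleotides (4). All rats were of the strain Wistar Han, and the labels name no genetic change. In vivo testes were collected at 6 ages, 8.5 and 14.5 days postpartum (dpp), 24.5 and 30.5 dpp, and 36.5 and 53.5 dpp, with 3 libraries per age from different testes, except that 14.5 dpp had 2 libraries with values. Explants were dissected at 8.5 dpp and kept at a gas-liquid interphase, on agarose, in αMEM medium with knockout serum replacement, retinol and vitamin E, for 6 (D6), 16 (D16), 22 (D22) or 28 days (D28), with 3 libraries per time. All cultured groups therefore share the retinol and vitamin E supplements, and the in vivo testes received neither. Each cultured library pooled several explants after the necrotic centre had been cut away, so that the tissue measured was the outer part of the explants. By nominal age D6 matched 14.5 dpp, D16 24.5 dpp, D22 30.5 dpp and D28 36.5 dpp.

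Before S phase, the origin recognition complex, Cdc6 and Cdt1 load the MCM2-7 ring onto origins, and the ring becomes an active helicase when Cdc45 and the GINS complex bind it. Primase and the DNA polymerases α, δ and ε then copy the strands, the clamp PCNA, loaded by replication factor C, holds the polymerases on DNA, and ribonucleotide reductase, thymidylate synthase and thymidine kinase provide the building blocks. In the prepubertal testis, Sertoli cells and spermatogonia divide and germ cells copy their DNA a last time before meiosis, whereas spermatids do not replicate, and the transcripts of many replication genes are driven by E2F factors when cells enter S phase.

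Promoter sequences are shown because the members did not share a single course in the animal. The 7 chosen differ in that course but are not its extremes. Mean levels at 53.5 dpp were 1.96% of those at 8.5 dpp for Mcm2, 8.62% for Mcm5 and 2.74% for Tyms. They were 50.1% for Mcm7, 173% for Rfc4, 109% for Prim2 and 53.7% for Pcna. The promoters come from RefSeq (build GRCr8, 250 bases before to 50 bases after the start of each gene), and 33 of the 39 genes had an entry. The letters TTTNNCGC, read on either strand and including the usual E2F site among other sequences, occurred in 15 of the 33 promoters (45.5%), against 5.19% of all 27457 promoters of the table and 6.75% of the 13624 promoters of genes with deposited values. Capitals mark these matches, which can overlap each other and overlapped the letters CCAAT in 1 member. CCAAT itself was present in 21 of the 33 promoters (63.6%), against 37.7% of all promoters.
Mcm2 (chr4:122918045-122918344, minus strand): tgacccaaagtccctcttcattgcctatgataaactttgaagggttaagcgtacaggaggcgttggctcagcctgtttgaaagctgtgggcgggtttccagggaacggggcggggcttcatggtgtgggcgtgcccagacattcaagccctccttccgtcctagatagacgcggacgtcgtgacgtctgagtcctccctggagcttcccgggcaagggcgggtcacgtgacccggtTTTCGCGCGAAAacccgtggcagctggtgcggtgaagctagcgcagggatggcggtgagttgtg
Mcm5 (chr19:13488563-13488862, plus strand): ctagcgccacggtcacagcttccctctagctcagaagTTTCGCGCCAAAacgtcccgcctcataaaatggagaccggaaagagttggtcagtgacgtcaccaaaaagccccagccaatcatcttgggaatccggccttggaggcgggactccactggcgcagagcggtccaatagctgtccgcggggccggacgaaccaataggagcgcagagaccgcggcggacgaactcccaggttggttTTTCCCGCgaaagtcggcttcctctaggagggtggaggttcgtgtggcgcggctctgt
Tyms (chr9:120776034-120776333, minus strand): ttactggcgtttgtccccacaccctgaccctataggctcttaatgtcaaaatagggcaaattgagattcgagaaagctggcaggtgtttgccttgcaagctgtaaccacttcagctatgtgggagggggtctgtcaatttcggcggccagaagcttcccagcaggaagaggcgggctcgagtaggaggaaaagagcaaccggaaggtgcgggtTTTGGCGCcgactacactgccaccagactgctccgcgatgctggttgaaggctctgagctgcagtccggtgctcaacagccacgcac
Mcm7 (chr12:22163129-22163428, minus strand): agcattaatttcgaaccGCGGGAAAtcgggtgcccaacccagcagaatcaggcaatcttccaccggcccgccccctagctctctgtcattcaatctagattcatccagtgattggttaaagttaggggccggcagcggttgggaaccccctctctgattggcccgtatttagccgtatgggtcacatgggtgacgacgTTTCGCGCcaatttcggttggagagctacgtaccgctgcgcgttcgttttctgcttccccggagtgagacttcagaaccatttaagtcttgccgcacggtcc
Rfc4 (chr11:91254023-91254322, plus strand): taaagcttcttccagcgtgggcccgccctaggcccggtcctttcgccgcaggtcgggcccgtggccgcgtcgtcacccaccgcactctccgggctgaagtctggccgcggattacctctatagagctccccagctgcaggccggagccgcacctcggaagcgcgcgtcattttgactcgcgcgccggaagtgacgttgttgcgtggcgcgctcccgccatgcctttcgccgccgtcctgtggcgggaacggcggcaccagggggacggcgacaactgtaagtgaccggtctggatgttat
Prim2 (chr9:43400405-43400704, minus strand): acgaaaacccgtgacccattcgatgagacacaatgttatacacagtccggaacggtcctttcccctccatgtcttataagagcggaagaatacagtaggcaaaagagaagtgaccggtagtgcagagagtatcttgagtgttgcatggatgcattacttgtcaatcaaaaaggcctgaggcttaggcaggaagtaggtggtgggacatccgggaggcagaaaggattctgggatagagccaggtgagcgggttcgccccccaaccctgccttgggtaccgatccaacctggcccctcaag
Pcna (chr3:139955771-139956070, minus strand): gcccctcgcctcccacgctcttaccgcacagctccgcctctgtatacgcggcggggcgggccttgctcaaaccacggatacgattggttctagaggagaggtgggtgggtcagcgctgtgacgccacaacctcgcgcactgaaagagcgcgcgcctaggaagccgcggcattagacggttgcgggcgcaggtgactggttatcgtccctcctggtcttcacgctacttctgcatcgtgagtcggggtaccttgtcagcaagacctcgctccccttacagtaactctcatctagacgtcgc
The first 3 genes were among those with steep falls in the animal, and Mcm7, Rfc4, Prim2 and Pcna were not. The first 3 all held a match, but Fen1, Pold1 and Rfc5, not shown, also fell between 24.5 and 30.5 dpp and held none. Prim1 and Tk1, not shown either, had means at 53.5 dpp of 3.26% and 3.03% of those at 8.5 dpp, lower than Mcm5, and held none. Of the 19 members with a promoter that fell between 24.5 and 30.5 dpp, 12 held TTTNNCGC, and of the 13 that did not fall, 2 did (Mcm7 and Pole2). These falls are those on the deposited scale, where 22 members fell. With the libraries scaled by the median of ratios 6 fell, and with quantile normalization 10. The calls over all genes moved too, with 34.9% of them rises on the deposited scale and 81.9% and 46.9% under these scalings. In the comparison of D28 with 14.5 dpp the corresponding numbers were 5 of 13 and 9 of 19, and in that of D6 with 8.5 dpp they were 9 of 15 and 5 of 17. These are descriptions of short windows and say nothing about the factors that bind there.

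Values are in FPKM, fragments scaled per kilobase and per library, which take account of transcript length and of the mapped reads of a library, so that levels can be set side by side between genes. Read counts were not used here, and the depth behind each value is unknown. A gene is said to have risen, fallen or been called where limma on log2(FPKM + 1) gave a Benjamini-Hochberg adjusted p of at most 0.05 over all genes tested and the medians of both groups differed at least 2-fold. Of the 39 genes, 33 had values above 0 in every library. Lig1, the ligase of the lagging strand, was listed at 0 in all 29 libraries and was not tested. Rpa1, Cdc45, Rrm2, Pole2 and Pold1 were listed at 0 in 16, 15, 10, 5 and 2 libraries, and a listed 0 can be a failed estimate in this kind of file. In whole tissue, fewer cells that express a gene and less RNA per cell cannot be told apart. Sertoli, spermatogonial, spermatocyte and spermatid markers were measured beside the members: the summed FPKM of 10 Sertoli markers was 1495 to 1589 at 8.5 dpp, 345 to 473 at 53.5 dpp and 3907 to 4735 at D28, and that of 10 spermatid markers was 21935 to 29819 at 53.5 dpp and 5.18 to 7.90 at D28, with 4 of the 10 at 0 in all D28 libraries.

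In the animal, most of the machinery was at its highest level at 8.5 dpp and at its lowest at 53.5 dpp. This held for 26 and 28 of the 33 genes without a 0. Levels at 53.5 dpp had a median of 10.7% of those at 8.5 dpp, with a range from 0.956% (Cdt1) to 173% (Rfc4). On the deposited scale, the step with the largest fall in log2(FPKM + 1) was that between 24.5 and 30.5 dpp for 20 of these genes. This order depended on the scaling. With the libraries scaled by the median of ratios, the median change of the members was -0.61 from 8.5 to 14.5 dpp and -0.52 from 24.5 to 30.5 dpp. From 36.5 to 53.5 dpp, 14 members changed sign with the scaling. In culture, the largest step on the deposited scale was the first, from 8.5 dpp to D6, for 29 of the 33. Levels at D28 had a median of 34.0% of those at 8.5 dpp, with a narrower range from 11.7% to 85.2%.

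**Figure D1:**
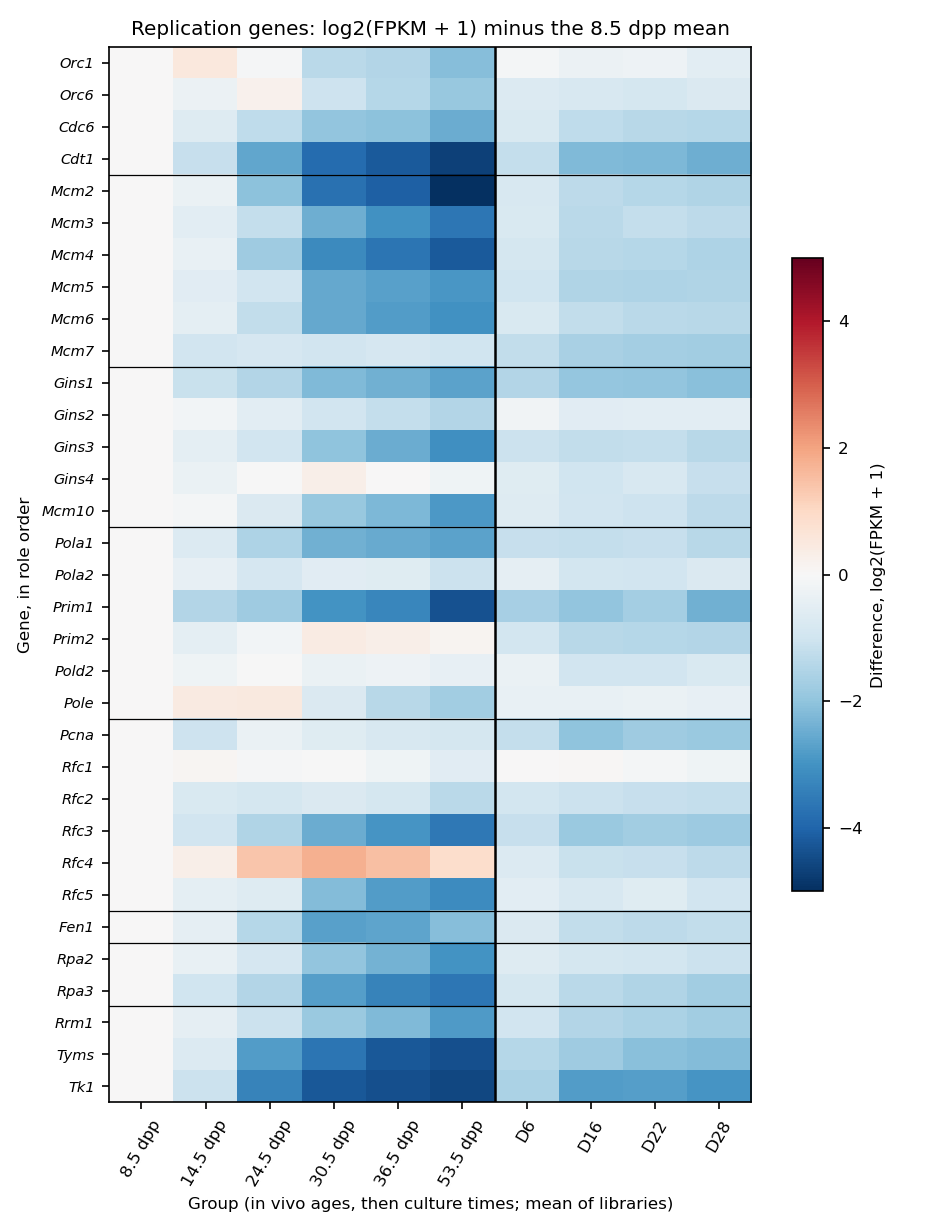
Mean log2(FPKM + 1) of each group minus that of 8.5 dpp (colour, log2 units) for the 33 genes above 0 in every library, in role order, with the 6 in vivo ages left of the vertical line and the 4 culture times right of it. Most rows turn deep blue from 30.5 dpp in the animal, Rfc4 turns red, and most culture columns stay in a paler blue.

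All 4 licensing factors had their lowest mean in the animal at 53.5 dpp, but not by the same course. Cdt1, which brings the MCM ring to origins, read 35.1, 29.9 and 31.6 FPKM at 8.5 dpp, 15.3 and 12.5 at 14.5 dpp, 3.64, 3.85 and 6.17 at 24.5 dpp, 1.53, 1.26 and 1.14 at 30.5 dpp, 0.756, 0.787 and 0.866 at 36.5 dpp and 0.214, 0.319 and 0.391 at 53.5 dpp. No 2 consecutive ages overlapped. In culture Cdt1 read 14.5, 13.7 and 12.4 at D6, 6.58, 6.23 and 5.498 at D16, 5.58, 7.34 and 5.402 at D22 and 3.52, 5.74 and 6.396 at D28, so that the last 3 culture times overlapped each other and lay above every testis from 30.5 dpp on. Orc6, a subunit of the origin recognition complex and the most abundant licensing member over all libraries, followed another course, with 11.4, 14.6 and 14.9 FPKM at 8.5 dpp, 10.04 and 11.9 at 14.5 dpp, 19.2, 13.2 and 15.6 at 24.5 dpp, 7.51, 4.81 and 5.94 at 30.5 dpp, 4.87, 4.46 and 4.01 at 36.5 dpp and 2.18, 3.06 and 3.79 at 53.5 dpp. The means of its 4 culture times lay between 6.85 and 8.12 FPKM, with libraries of 8.38, 8.55 and 7.43 at D6, 7.27, 7.36 and 7.61 at D16, 7.99, 6.13 and 6.43 at D22 and 9.27, 7.73 and 6.797 at D28. Orc1, the ATPase subunit of the same complex, was highest at 14.5 dpp, where its libraries read 6.97 and 10.6, and Cdc6, the loading ATPase, was highest at 8.5 dpp with 13.9 ± 0.588 FPKM (SD, n = 3).

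Within the MCM ring, 5 subunits kept together and 1 did not. Mcm2 read 82.9, 72.6 and 82.7 FPKM at 8.5 dpp, 68.6 and 58.1 at 14.5 dpp, 17.8, 13.5 and 26.1 at 24.5 dpp, 6.43, 3.57 and 5.33 at 30.5 dpp, 4.46, 4.16 and 2.79 at 36.5 dpp and 1.43, 1.42 and 1.81 at 53.5 dpp. In culture it read 40.8, 43.5 and 50.1 at D6, 33.9, 31.7 and 29.4 at D16, 34.4, 26.8 and 26.3 at D22 and 26.3, 25.8 and 28.8 at D28. Every cultured library but 1 of D28 thus lay above the highest 24.5 dpp library. Mcm7, a subunit of the same ring, began at 177, 194 and 213 FPKM at 8.5 dpp and then read 111 and 86.8 at 14.5 dpp, 108, 107 and 106 at 24.5 dpp, 98.2, 104 and 94.8 at 30.5 dpp, 107, 108 and 109 at 36.5 dpp and 101, 89.9 and 102 at 53.5 dpp. From 14.5 dpp on all testes lay between 86.8 and 111 FPKM of Mcm7, a stretch over which Mcm2 dropped by more than an order of magnitude. In culture Mcm7 was lower than in any testis, with 78.4, 83.9 and 87.8 at D6, 62.1, 62.1 and 62.99 at D16, 59.5, 55.4 and 60.99 at D22 and 58.6, 53.04 and 59.5 at D28, apart from 1 D6 library that exceeded the lower 14.5 dpp testis. The Mcm7 gene overlaps 3 microRNA genes in the RefSeq annotation. Mcm3, Mcm4, Mcm5 and Mcm6 followed Mcm2: their means went from 47.9, 46.3, 18.5 and 36.1 FPKM at 8.5 dpp to 3.04, 1.55, 1.59 and 3.59 at 53.5 dpp.

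**Figure D2:**
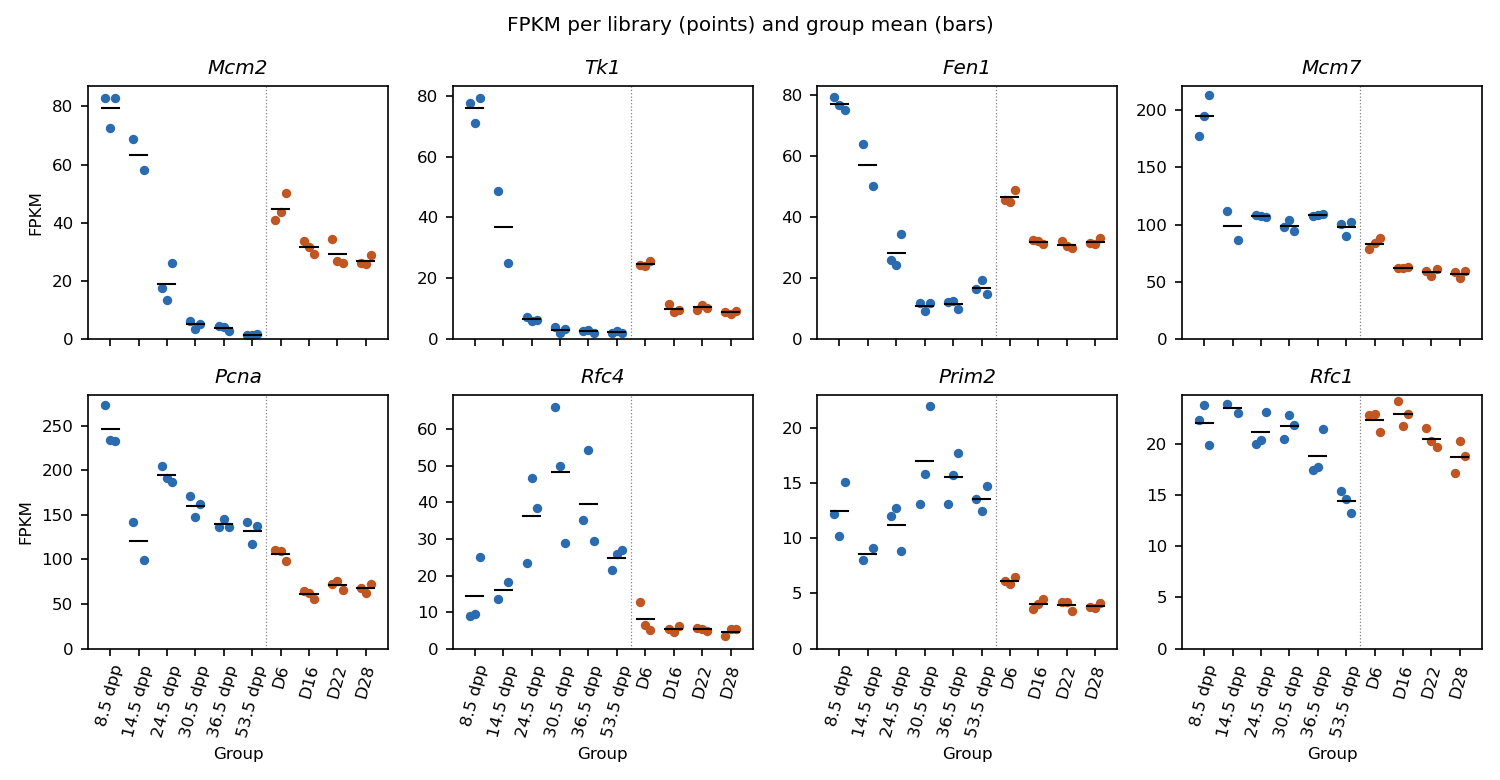
FPKM (linear axis from 0) of 8 genes in each library by group, with in vivo ages in blue, culture times in orange and the group mean as a bar. Mcm2, Tk1 and Fen1 drop to low levels in the animal and stay above them in culture, whereas Mcm7, Pcna, Rfc4 and Prim2 are higher in the later testes than in culture, and Rfc1 lies between 13.2 and 24.2 FPKM throughout.

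The helicase partners were divided as well. Mcm10, which helps to turn the loaded ring into a working helicase, read 13.7, 16.5 and 15.4 FPKM at 8.5 dpp, 14.3 and 13.9 at 14.5 dpp, 8.61, 7.26 and 10.7 at 24.5 dpp, 4.36, 2.65 and 3.29 at 30.5 dpp, 2.61, 2.54 and 2.21 at 36.5 dpp and 1.14, 1.13 and 1.34 at 53.5 dpp, and in culture 9.19, 11.1 and 8.22 at D6, 7.75, 7.35 and 6.75 at D16, 7.88, 6.68 and 6.02 at D22 and 4.22, 5.91 and 6.74 at D28. Gins4, 1 of the 4 subunits of GINS, read 16.6, 16.9 and 18.2 at 8.5 dpp, 11.9 and 15.1 at 14.5 dpp, 15.7, 19.4 and 15.7 at 24.5 dpp, 22.5, 23.2 and 19.2 at 30.5 dpp, 16.2, 19.2 and 16.6 at 36.5 dpp and 13.6, 15.8 and 14.9 at 53.5 dpp, and in culture 12.1, 11.8 and 9.54 at D6, 7.71, 8.07 and 8.79 at D16, 9.805, 9.04 and 9.46 at D22 and 5.99, 8.07 and 8.01 at D28. Its in vivo ages overlapped in part and its D16 to D28 libraries lay below every testis. The other GINS subunits did not follow it: the means of Gins1, Gins2 and Gins3 at 53.5 dpp were 2.64, 2.92 and 1.595 FPKM, against 22.02, 9.76 and 20.6 at 8.5 dpp. Gins2 overlaps Gse1 in the annotation. Cdc45 was close to the limit of the file, with no value above 3.12 FPKM and 0 listed in all D28 libraries.

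Among polymerases and primase the 2 primase subunits went separate ways. Prim1, the catalytic subunit, read 55.4, 52.5 and 68.6 FPKM at 8.5 dpp, 24.6 and 17.2 at 14.5 dpp, 15.3, 16.3 and 17.2 at 24.5 dpp, 5.01, 6.54 and 8.24 at 30.5 dpp, 6.57, 4.39 and 4.91 at 36.5 dpp and 1.65, 1.73 and 2.37 at 53.5 dpp. Prim2, the regulatory subunit, read 12.2, 10.3 and 15.1 at 8.5 dpp, 8.05 and 9.12 at 14.5 dpp, 11.99, 12.8 and 8.83 at 24.5 dpp, 13.1, 15.8 and 22.02 at 30.5 dpp, 13.1, 15.8 and 17.7 at 36.5 dpp and 13.6, 12.5 and 14.7 at 53.5 dpp. Prim1 was therefore above Prim2 in every testis up to 14.5 dpp and below it in every testis from 30.5 dpp on. In culture Prim1 read 22.8, 18.2 and 13.5 at D6, 14.9, 11.8 and 16.8 at D16, 18.5, 18.4 and 14.6 at D22 and 11.8, 9.03 and 10.4 at D28, and Prim2 read 6.13, 5.83 and 6.53 at D6, 3.599, 4.05 and 4.53 at D16, 4.24, 4.202 and 3.45 at D22 and 3.75, 3.69 and 4.17 at D28. Prim1 stayed above Prim2 in all 12 cultured libraries. Pold1, the catalytic subunit of polymerase δ, read 11.2 and 6.004 at 14.5 dpp, 0, 0.311 and 0.229 at 36.5 dpp and 1.99, 1.83 and 5.78 at D28, where 1 library stood apart from the other two. Pold1 read 8.58, 7.0996 and 9.29 at 8.5 dpp, 4.83, 4.13 and 6.34 at 24.5 dpp, 1.12, 0.6999 and 1.36 at 30.5 dpp, 0, 0.255 and 0.186 at 53.5 dpp, 3.15, 3.43 and 4.03 at D6, 1.701, 3.05 and 3.03 at D16 and 4.62, 4.095 and 3.58 at D22. Its accessory subunit Pold2 had means from 7.64 to 15.97 FPKM over the 10 groups, while Pola1, the catalytic subunit of polymerase α, went from 6.02 ± 0.195 to 0.0914 ± 0.0367 FPKM in the animal (SD, n = 3) and its partner Pola2 from 9.71 ± 0.818 to 4.14 ± 0.836. Pole, the catalytic subunit of polymerase ε, was highest at 24.5 dpp with 6.9995 ± 2.08 FPKM, and Pole2, which overlaps Klhdc1 in the annotation, did not exceed 3.81 FPKM.

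The clamp and its loader held the most abundant member and the one that rose in the animal. Pcna read 273, 234 and 232 FPKM at 8.5 dpp, 142 and 99.9 at 14.5 dpp, 205, 192 and 187 at 24.5 dpp, 171, 147 and 162 at 30.5 dpp, 137, 145 and 137 at 36.5 dpp and 142, 118 and 137 at 53.5 dpp. In culture it read 110, 110 and 98.4 at D6, 65.1, 62.4 and 55.3 at D16, 72.7, 75.4 and 65.8 at D22 and 68.4, 62.04 and 72.3 at D28, and from D16 on all libraries lay below all testes. Rfc4, a small subunit of the clamp loader, read 8.81, 9.38 and 25.02 at 8.5 dpp, 13.6 and 18.3 at 14.5 dpp, 23.4, 46.8 and 38.5 at 24.5 dpp, 66.2, 50.1 and 29.01 at 30.5 dpp, 35.2, 54.5 and 29.5 at 36.5 dpp and 21.7, 25.9 and 27.1 at 53.5 dpp. The replicates of Rfc4 differed by more than 2-fold at 8.5 and 30.5 dpp, yet all testes from 24.5 dpp on were above both 14.5 dpp testes. In culture Rfc4 read 12.9, 6.45 and 4.97 at D6, 5.28, 4.65 and 6.33 at D16, 5.7004, 5.42 and 4.84 at D22 and 3.41, 5.26 and 5.29 at D28, below every testis except for 1 D6 library. Rfc3 and Rfc5, 2 further small subunits, had the usual course, with means of 62.4 and 22.7 FPKM at 8.5 dpp and 4.47 and 1.67 at 53.5 dpp. Rfc1, the large subunit, had the narrowest range of group means of the 33, from 14.4 to 23.5 FPKM, and Rfc2 lay at 33.3 at 8.5 dpp and between 12.6 and 19.7 in all later testes.

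Fen1, the flap endonuclease that trims Okazaki fragments, read 79.5, 76.8 and 75.2 FPKM at 8.5 dpp, 63.9 and 50.3 at 14.5 dpp, 26.1, 24.5 and 34.7 at 24.5 dpp, 11.8, 9.35 and 11.8 at 30.5 dpp, 12.3, 12.6 and 10.01 at 36.5 dpp and 16.4, 19.5 and 14.9 at 53.5 dpp, and the gene overlaps Tmem258. In culture Fen1 read 45.7, 45.03 and 48.9 at D6, 32.5, 32.1 and 31.1 at D16, 32.3, 30.6 and 29.9 at D22 and 31.6, 31.2 and 33.1 at D28, so that the 9 libraries from D16 to D28 lay within 29.9 and 33.1 FPKM. Of RPA, which coats single-stranded DNA, Rpa2 read 48.2, 46.6 and 52.02 at 8.5 dpp, 35.9 and 38.6 at 14.5 dpp, 26.3, 23.1 and 32.01 at 24.5 dpp, 14.3, 9.18 and 12.2 at 30.5 dpp, 8.02, 8.84 and 9.29 at 36.5 dpp and 4.86, 5.76 and 5.04 at 53.5 dpp. Its cultured libraries went down less far, with 34.6, 29.6 and 28.2 at D6, 28.01, 23.8 and 26.3 at D16, 25.7, 26.4 and 24.2 at D22 and 19.4, 24.4 and 24.2 at D28. Rpa3, the smallest subunit, was at 51.6 ± 3.46 FPKM at 8.5 dpp, 4.14 ± 0.263 at 36.5 dpp and 14.7 ± 1.34 at D28 (SD, n = 3). Rpa1, the large subunit, cannot be followed: it read 5.42 and 6.06 at 14.5 dpp, 9.89, 12.3 and 0 at 30.5 dpp, 0, 3.404 and 0 at 36.5 dpp, 3.23, 3.402 and 0 at D28 and 0 in all libraries of 24.5 dpp and D6. At 8.5 dpp it read 0, 0 and 7.73, at 53.5 dpp 6.29, 0 and 1.87, at D16 0, 4.32 and 0 and at D22 3.64, 3.82 and 0.

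Of the enzymes of deoxynucleotide supply, Tk1 fell in both of the first 2 in vivo steps, from 8.5 to 14.5 dpp and from 14.5 to 24.5 dpp, and Tyms and Rrm2 fell in the second of them. Tk1, the cytosolic thymidine kinase, read 77.4, 70.9 and 79.3 FPKM at 8.5 dpp, 48.8 and 25.01 at 14.5 dpp, 7.27, 6.01 and 6.46 at 24.5 dpp, 3.901, 2.18 and 3.36 at 30.5 dpp, 2.61, 3.03 and 2.22 at 36.5 dpp and 1.93, 2.73 and 2.23 at 53.5 dpp. In culture Tk1 read 24.5, 23.95 and 25.6 at D6, 11.6, 8.87 and 9.67 at D16, 9.67, 11.3 and 10.4 at D22 and 9.04, 8.18 and 9.33 at D28, and from D16 on all libraries lay above the 24.5 dpp testes and below both 14.5 dpp testes. Rrm1, the large subunit of ribonucleotide reductase, read 62.7, 54.7 and 65.7 at 8.5 dpp, 46.4 and 42.6 at 14.5 dpp, 26.4, 28.1 and 31.4 at 24.5 dpp, 17.2, 14.9 and 16.1 at 30.5 dpp, 12.3, 14.3 and 10.4 at 36.5 dpp and 7.69, 8.002 and 7.56 at 53.5 dpp. It read 34.1, 30.5 and 29.5 at D6, 23.95, 19.7 and 20.6 at D16, 22.5, 16.6 and 20.04 at D22 and 13.5, 19.8 and 19.7 at D28, where the D16 to D28 libraries overlapped. The small subunit Rrm2, which overlaps Cys1, was listed at 0 in the 3 testes of 8.5 dpp and read 34.5 and 32.5 at 14.5 dpp, 0.994, 9.06 and 12.2 at 24.5 dpp, 6.65, 7.41 and 5.86 at 30.5 dpp, 0, 7.11 and 0 at 36.5 dpp and 4.91, 3.601 and 3.35 at 53.5 dpp, and 0, 19.98 and 0 at D6, 8.24, 0 and 8.14 at D16, 8.51, 7.78 and 0 at D22 and 4.55, 8.01 and 0 at D28. Since its partner Rrm1 was at its highest where Rrm2 is listed at 0, no change of Rrm2 is read from 8.5 dpp or between groups with listed zeros. Tyms, thymidylate synthase, went from 47.9 ± 5.95 FPKM at 8.5 dpp to 1.31 ± 0.413 at 53.5 dpp and to 9.71 ± 0.4402 at D28 (SD, n = 3).

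The consecutive in vivo ages were compared in a single fit of the 6 ages, to show when the transcripts changed. From 8.5 to 14.5 dpp, 5 of the 38 members tested fell (6.32% of all genes tested fell): Cdt1, Gins1, Prim1, Rpa3 and Tk1, with Prim1 at -1.46 (SE 0.20, adjusted p = 9.1e-05) on the log2 scale. Rrm2 was called higher (8.37% of all genes), against a group listed at 0. From 14.5 to 24.5 dpp, 8 fell (21.4% of all genes) and 1 rose (14.2%). The share of members that fell was near that of all genes. The falls included Tk1 at -2.25 (SE 0.23, adjusted p = 1.58e-06), Tyms at -2.09 (SE 0.19, adjusted p = 6.16e-07) and Mcm2 at -1.72 (SE 0.24, adjusted p = 3.05e-05), and the rise was that of Rfc4 at 1.10 (SE 0.43, adjusted p = 0.039). Over this step all 10 spermatocyte markers were called higher, and their part in the values of the members was not tested.

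From 24.5 to 30.5 dpp, 22 members fell (24.5% of all genes) and none rose by this rule (13.1%). limma gave 2 rises by adjusted p alone (21.1% of all genes), Gins4 at 0.34 (SE 0.12, adjusted p = 0.0202) and Prim2 at 0.54 (SE 0.19, adjusted p = 0.0181). By role, the falls counted 3 of 4 licensing factors, 5 of 6 MCM subunits, 4 of 6 helicase partners, 4 of 8 polymerases and primase, 2 of 6 of clamp and loader, Fen1, 2 of 3 RPA subunits and 1 of 4 enzymes of deoxynucleotide supply. The median log2 change was -0.93 over the members and -0.32 over all genes. Scaling the libraries by the median of ratios, which moved the median of all genes by 0.36, left 6 falls and 1 rise, and quantile normalization left 10 falls. The calls over all genes moved as well: 34.9% of them were rises on the deposited scale, 81.9% with the median of ratios and 46.9% with quantile normalization. With the median of ratios the median change was -0.52 over the members and 0.04 over all genes. With quantile normalization it was -0.70 and -0.20. Cdt1, Mcm2, Mcm5, Pola1, Pold1 and Rfc5 fell under all 3. All 10 spermatid markers were called higher over the same step and 9 of 10 Sertoli markers lower, and fewer replicating cells in a tissue that gains spermatids cannot be told apart from less RNA per cell.

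After 30.5 dpp few members moved. Pole at -0.67 (SE 0.20, adjusted p = 0.0198) and Pold1 fell from 30.5 to 36.5 dpp (2 members, 1.4% of all genes fell), and none rose (6.08%). From 36.5 to 53.5 dpp none rose (2.62%) and 5 fell (3.93%), namely Orc1, Cdt1, Mcm2, Mcm10 and Prim1, of which Prim1 at -1.10 (SE 0.18, adjusted p = 0.00106) was the only one called under all 3 scalings.

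The first 6 days of culture were examined against in vivo testes of 8.5 dpp, the age at which the explants were taken. The fit held 8.5 dpp and the 4 culture times. At D6, 15 of 38 members had fallen (6.23% of all genes tested fell) and none had risen (9.9%). The median log2 change was -0.79 over the members and 0.06 over all genes, and 36 of 38 members were negative. Tk1 changed by -1.58 (SE 0.09, adjusted p = 5.3e-08), Prim1 by -1.66 (SE 0.18, adjusted p = 8.95e-06), Gins1 by -1.45 (SE 0.14, adjusted p = 3.7e-06), Mcm7 by -1.21 (SE 0.08, adjusted p = 1.51e-07) and Pcna by -1.20 (SE 0.10, adjusted p = 6.32e-07). Of the 15, 14 fell under all 3 scalings. Rfc1 stood at 0.02 (SE 0.08, adjusted p = 0.854). Summed Leydig markers were 239 to 339 FPKM at 8.5 dpp and 16.8 to 24.3 at D6, and erythroid markers 284 to 700 and 1.17 to 2.91, and the part of lost interstitial or blood cells in the values of the members was not tested.

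From D6 to D16 only Cdt1 at -1.03 (SE 0.16, adjusted p = 0.00106) and Tk1 at -1.23 (SE 0.09, adjusted p = 8.78e-06) fell (2 of 38, 1.83% of all genes) and none rose (1.38%), with 21 lower by adjusted p alone (9.81%). From D16 to D22 and from D22 to D28 limma called no member (0.277% and 0% of all genes in either direction), and none passed by adjusted p alone (0.659% and 0%), while 2 and 7 members had an unadjusted p under 0.05. Few or none of all genes passed in these 2 steps, so the lack of calls is not particular to the members. From D22 to D28 the median log2 change was -0.11 over the members and -0.01 over all genes. For the 33 members above 0 in every library, a median of 57.6% of the log2 difference between 8.5 dpp and D28 was reached by D6 and 88.9% by D16. With D28 as the end point, these shares do not show that change had stopped.

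The cultured explants were then set against the 14.5 dpp testis, which has the nominal age of D6, to ask how far the transcripts of the replication machinery stayed at that level in longer culture. D16, D22 and D28 share the same 2 control testes. At D16, 13 of 38 members were lower (6.14% of all genes tested were lower), at D22 13 (5.99%) and at D28 15 (6.88%), and none was higher at any time (6.87%, 7.76% and 8.4% of all genes). By adjusted p alone the numbers were 31, 30 and 34 (18.2%, 19.4% and 23.1%). All 38 log2 changes were negative at each of the 3 times, with medians of -0.82, -0.77 and -0.88 against -0.05, -0.05 and -0.08 over all genes. Cdc45, Cdt1, Mcm4, Prim2, Rfc4, Rrm1, Tk1 and Tyms were called at all 3 times. For 32 of the 33 members above 0 in every library, all D28 libraries lay below both 14.5 dpp testes, as they did for 33.2% of all tested genes above 0 in every library.

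At D28 the largest changes among these 33 were those of Tk1 with -1.87 (SE 0.23, adjusted p = 0.000253), Rfc4 with -1.59 (SE 0.19, adjusted p = 0.00022), Tyms with -1.49 (SE 0.17, adjusted p = 0.000205), Rrm1 with -1.30 (SE 0.18, adjusted p = 0.000514) and Cdt1 with -1.29 (SE 0.21, adjusted p = 0.00114). Mcm10 changed by -1.21 (SE 0.16, adjusted p = 0.000437), Mcm2 by -1.20 (SE 0.13, adjusted p = 0.00017) and Mcm4 by -1.19 (SE 0.12, adjusted p = 0.000119). Fen1 at -0.81 (SE 0.11, adjusted p = 0.000389), Pcna at -0.81 (SE 0.15, adjusted p = 0.00241), Mcm7 at -0.78 (SE 0.11, adjusted p = 0.000708), Gins4 at -0.80 (SE 0.14, adjusted p = 0.00182), Rpa2 at -0.70 (SE 0.12, adjusted p = 0.00159) and Orc6 at -0.43 (SE 0.14, adjusted p = 0.0353) passed by adjusted p alone, with medians less than 2-fold apart. By role, the calls at D28 counted 2 of 4 licensing factors, 2 of 6 MCM subunits, 3 of 6 helicase partners, 4 of 8 polymerases and primase, 1 of 6 of clamp and loader, 3 of 4 enzymes of deoxynucleotide supply, and none for Fen1 and the 3 RPA subunits. Pola2 stood at -0.31 (SE 0.21, adjusted p = 0.267), and Pole2, Rpa1 and Rrm2 did not pass either.

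**Figure D3:**
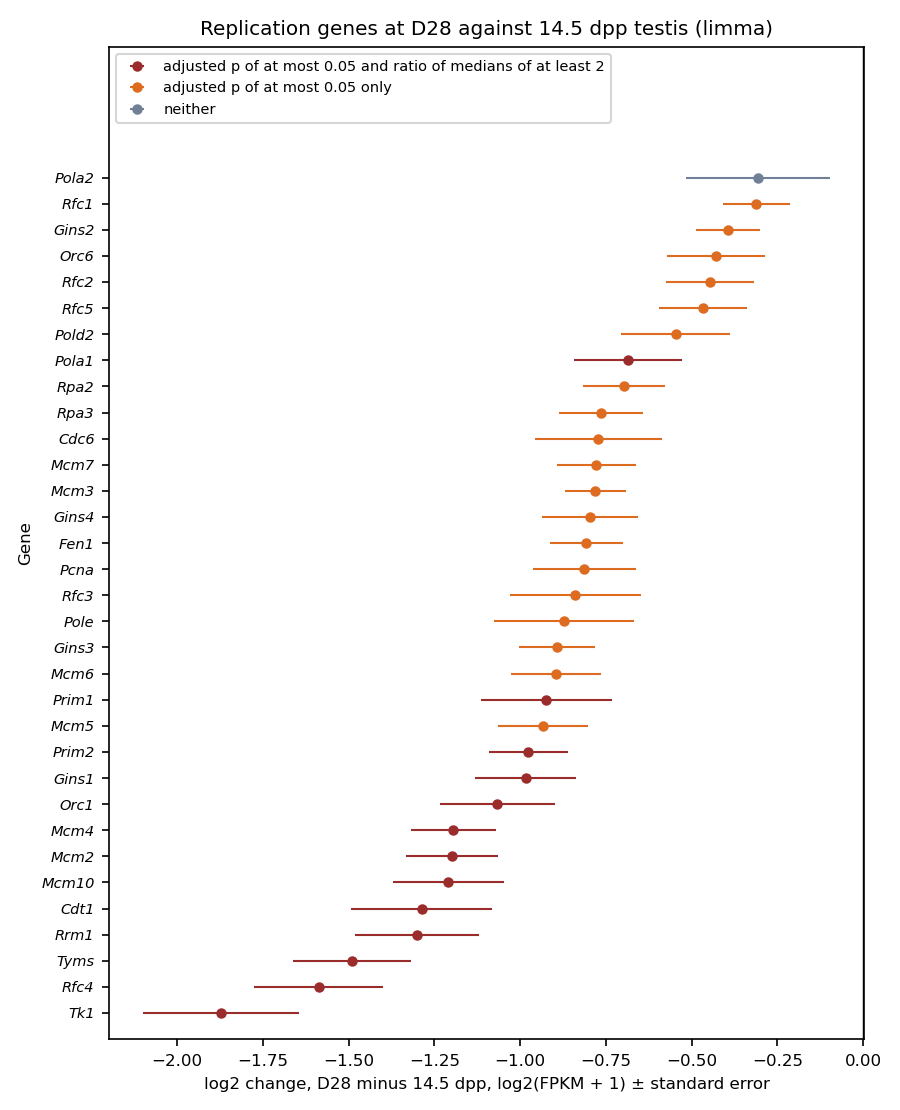
Change in log2(FPKM + 1) from 14.5 dpp to D28 (horizontal axis, point and standard error from limma) for the 33 genes above 0 in every library, ordered by size. All 33 points lie left of 0, from -1.87 for Tk1 to -0.31 for Rfc1 and Pola2, and colours mark which passed the adjusted p and the 2-fold ratio of medians.

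The 2 control testes differed for several members, with Tk1 at 48.8 and 25.01 FPKM, Tyms at 37.5 and 22.5, Pola2 at 9.71 and 5.06 and Pold1 at 11.2 and 6.004. The sum of the 10 spermatocyte markers also differed between them, from 54.4 to 173 FPKM. Left with either testis alone, which is then assumed to vary like the other groups, the count at D28 was 13 or 18, and the calls of Orc1, Pola1, Prim1 and Pold1 were each lost in at least 1 fit that left out a library. Macrophage and endothelial markers moved the other way: 4 of 6 and 2 of 5 tested were higher at D28 than at 14.5 dpp, their sums being 93.2 to 126 against 27.2 to 30.5 FPKM and 47.3 to 71.7 against 25.1 to 31.5, and 3 of 10 spermatogonial markers were lower. The Sertoli sum was 3907 to 4735 FPKM at D28 against 1903 to 2514 at 14.5 dpp. Sums were lower at D28 for Leydig (25.4 to 37.3 against 146 to 306), peritubular myoid (106 to 138 against 316 to 521) and erythroid markers (4.43 to 8.55 against 246 to 392). The part of these cell types in the change of the members was not tested.

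At D6, few members were called between the explants and the 14.5 dpp testes of the same nominal age, although most means lay lower in the explants. Pold1 at -1.03 (SE 0.25, adjusted p = 0.0408) and Rpa1, listed at 0 in all D6 libraries, were lower (2 of 38, 2.37% of all genes), and none was higher (5.57%). The median log2 change was -0.31 over the members and -0.04 over all genes. Only 1 member, Rpa3, had a higher mean FPKM at D6 than at 14.5 dpp. Mcm4 at -0.53 (SE 0.13, adjusted p = 0.043) passed by adjusted p alone, as did 5 members in all (6.38% of all genes).

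Against testes of their own nominal age and on the deposited scale, more members were lower than higher in the explants at D16. The share of members lower was near that of all genes, of which more were higher than lower. From D22 on more members were higher than lower, as was so for all genes. That order reversed with median-of-ratios scaling and held with quantile normalization. At D16 against 24.5 dpp, 6 of 37 tested members were lower (18.3% of all genes were lower), namely Orc6, Cdc45, Prim2, Pold2, Pcna and Rfc4, and Tyms was higher at 0.99 (SE 0.13, adjusted p = 0.00054) (1 member, 25.3%). At D22 against 30.5 dpp, 17 of 37 were higher (42.1%) and 5 lower (22.9%). At D28 against 36.5 dpp, 21 of 38 were higher (46.7%) and 4 lower (23.6%), and the share of members higher, 55.3%, was near that of all genes. The median over the members was 0.89 and that over all genes 0.64.

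The 36.5 dpp values enter both the split at D28 and the in vivo courses of the members, so that neither is a check of the other. Mcm2 was higher by 2.56 (SE 0.15, adjusted p = 2.9e-06), Mcm4 by 2.09 (SE 0.13, adjusted p = 3.65e-06), Tyms by 2.05 (SE 0.09, adjusted p = 6.66e-07), Rfc5 by 1.87 (SE 0.13, adjusted p = 6.35e-06) and Cdt1 by 1.76 (SE 0.19, adjusted p = 6.22e-05). Rfc4 was lower, with -2.82 (SE 0.25, adjusted p = 2.09e-05), as were Prim2 with -1.75 (SE 0.13, adjusted p = 8.08e-06), Gins4 with -1.14 (SE 0.14, adjusted p = 0.000134) and Pcna with -1.04 (SE 0.10, adjusted p = 3.91e-05). Mcm7 stood at -0.91 (SE 0.10, adjusted p = 5.52e-05), less than 2-fold apart in medians. All D28 libraries were above all 36.5 dpp testes for 22 of the 33 members above 0 in every library, and below all of them for 7, while over all tested genes above 0 in every library this was so for 61% and 26.4%, shares near those of the members.

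These counts depended on how the libraries were scaled. Median-of-ratios scaling moved the median of all genes by -0.76 at D28 against 36.5 dpp and left 7 members higher and 8 lower, and quantile normalization left 15 and 3. At D22 against 30.5 dpp the split was 7 and 9, or 13 and 7. Of the calls over all genes, 44.9% and 60.3% were higher at D28 under these scalings, and 46% and 59.9% at D22. Cdt1, Mcm2, Mcm4, Pola1, Pold1, Rfc5 and Tyms were higher at D28 under all 3 scalings, and Rfc4, Prim2 and Gins4 lower. Orc6, Cdc6, Gins1, Gins2 and Rrm1 changed sign with the scaling, and only Cdc6 of these was called on the deposited scale. The median of the members exceeded that of all genes in each, by 0.28 against -0.11 after median-of-ratios scaling and 0.49 against 0.41 after quantile normalization. Beside these values, 9 of 10 Sertoli markers were higher at D28 than at 36.5 dpp, all 10 spermatid and 9 of 10 spermatocyte markers were lower, and the cell composition and the level per cell cannot be told apart.

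The change over the same 22 days, from D6 to D28 in culture and from 14.5 to 36.5 dpp in the animal, was compared by an interaction term. It differed for 24 of 38 members, with a more positive change in culture for 22 (38.4% of all genes tested) and a more negative one for 2 (19.2%). The median difference was 1.48 over the members and 0.63 over all genes. Mcm2 changed by -0.71 in culture and by -3.76 in the animal, a difference of 3.05 (SE 0.22, adjusted p = 6.91e-07). Rfc4 changed by -0.61 in culture and 1.23 in the animal, a difference of -1.84 (SE 0.48, adjusted p = 0.00535), and Prim2 by -0.56 and 0.78, a difference of -1.33 (SE 0.17, adjusted p = 4.64e-05). Median-of-ratios scaling moved the median of all genes by -0.70 and left 11 and 7, quantile normalization 18 and 3. Of the differences called over all genes, 40.4% and 58.9% were positive under these scalings. Under all 3, the difference was called positive for Cdt1, Mcm2, Mcm3, Mcm4, Pola1, Pold1, Pole, Rfc5, Rpa1, Tyms and Tk1, of which Rpa1 has listed zeros, and negative for Rfc4 and Prim2.

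**Figure D4:**
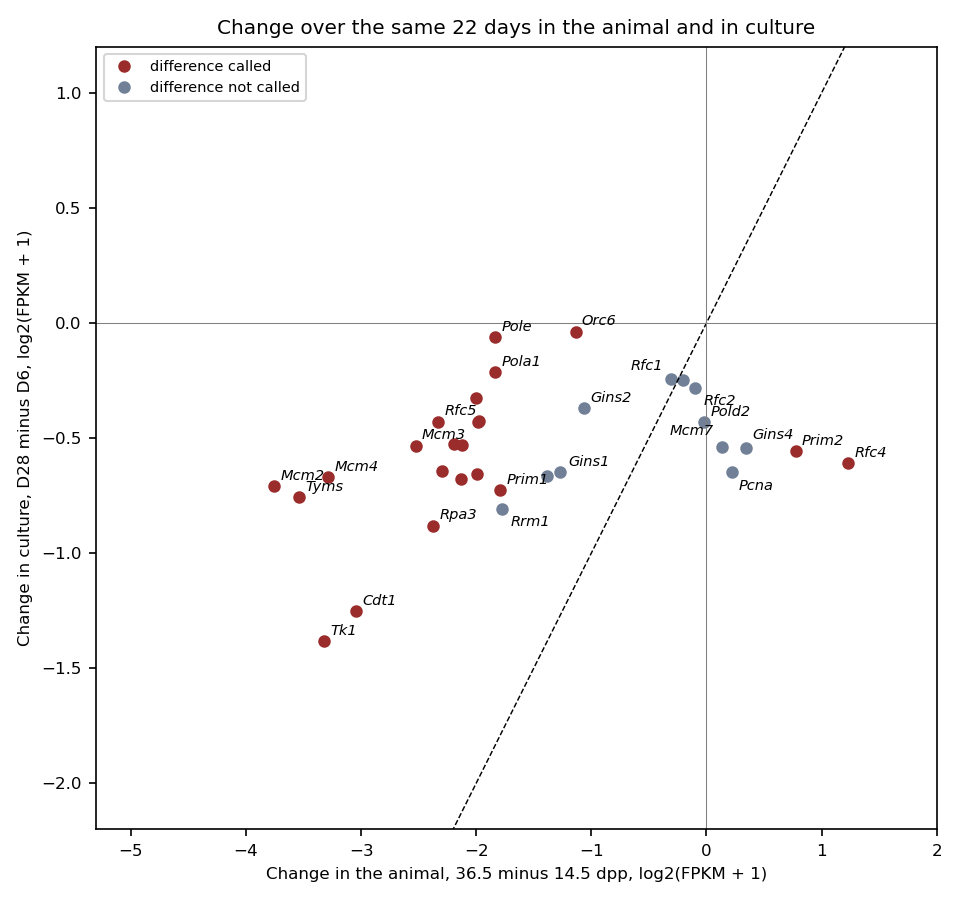
Change in log2(FPKM + 1) in the animal (horizontal axis, 36.5 minus 14.5 dpp) against the change in culture (vertical axis, D28 minus D6) for the 33 genes above 0 in every library, with the line of equal change dashed and called differences in red. The genes spread from -3.76 to 1.23 along the horizontal axis and from -1.38 to -0.04 along the vertical one, and Rfc4 and Prim2 lie farthest to the right.

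The neighbours of these genes in the pathway were followed by fixed lists, chosen with earlier results of these data known. At D28 against 14.5 dpp, 6.88% of all genes were lower and 8.4% higher. In this comparison 9 of 31 other replication factors were lower and none higher. Among them were Timeless, a fork protection factor, at -0.98 (SE 0.10, adjusted p = 0.000112), the helicase Recql4 at -1.29 (SE 0.14, adjusted p = 0.000128), the histone chaperone Nasp at -1.37 (SE 0.16, adjusted p = 0.000229) and the maintenance methyltransferase Dnmt1 at -0.95 (SE 0.14, adjusted p = 0.000697). The median of that list was -0.60. Of 15 other genes of deoxynucleotide metabolism, 3 were lower, with the deaminase Dctd at -1.01 (SE 0.12, adjusted p = 0.000182) and Dut, which removes dUTP, at -1.01 (SE 0.13, adjusted p = 0.000356). Rrm2b, the reductase subunit used outside S phase, stood at -0.15 (SE 0.22, adjusted p = 0.612). Of 28 genes controlling the passage from G1 to S phase, 12 were lower and 1 was higher, with Ccna2 at -1.60 (SE 0.14, adjusted p = 5.59e-05), Ccne1 at -0.97 (SE 0.10, adjusted p = 9.53e-05), E2f7 at -1.24 (SE 0.13, adjusted p = 0.000122) and Skp2 at -1.47 (SE 0.16, adjusted p = 0.000124). Only Cdkn2b, an inhibitor of Cdk4 and Cdk6, was higher at 0.92 (SE 0.14, adjusted p = 0.000967). Cdkn1a, the inhibitor p21, passed by adjusted p alone at 0.63 (SE 0.13, adjusted p = 0.00487), and Ccnd2 stood at -0.27 (SE 0.20, adjusted p = 0.29).

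Genes of proliferation and mitosis were lower at D28 than at 14.5 dpp in 12 of 14 cases, where 6.88% of all genes were lower. Their list had a median of -1.42, against -0.88 for the replication members. Kif11, a spindle motor, was at -1.68 (SE 0.13, adjusted p = 2.59e-05), the kinase Plk1 at -1.64 (SE 0.15, adjusted p = 5.34e-05), Top2a at -1.77 (SE 0.18, adjusted p = 0.000117) and Mki67, the proliferation antigen Ki-67, at -1.53 (SE 0.16, adjusted p = 0.000129). At D28 against 36.5 dpp, where 46.7% of all genes were higher and 23.6% lower, the lists were counted on the deposited scale alone. Of the genes of proliferation and mitosis, 7 of 14 were lower and 1, Tpx2, was higher, and Top2a was at -1.11 (SE 0.16, adjusted p = 0.000313). Among the other replication factors 11 of 30 were higher than at 36.5 dpp and 8 lower, counts near those shares, with Dnmt1 at 2.09 (SE 0.11, adjusted p = 1.35e-06) and Nasp at -4.10 (SE 0.13, adjusted p = 1.22e-07). Nasp rose in the animal, by 1.42 (SE 0.20, adjusted p = 2.83e-05) from 14.5 to 24.5 dpp and by 1.51 (SE 0.18, adjusted p = 4.63e-06) from 24.5 to 30.5 dpp, where it stood at 838 ± 28.6 FPKM, and read 41.9 ± 4.77 at D28 (SD, n = 3). Of the genes of deoxynucleotide metabolism 8 of 14 were higher than at 36.5 dpp and none lower, and of the G1 to S genes 15 of 28 were higher and 6 lower, again near those shares, with Ccnd2 at 2.74 (SE 0.16, adjusted p = 2.44e-06) and Ccna1, the cyclin of spermatocytes, at -5.96 (SE 0.16, adjusted p = 6.11e-08).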

How the data were processed

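RNA from testes of 6 in vivo ages and 4 culture times was sequenced by the authors as polyA-selected, stranded libraries of 50 bp single reads, aligned to rn6 with STAR 2.5.2a, and quantified with StringTie and Ballgown. The deposited values are FPKM per gene, called RPKM in the methods and scaled by the authors to transcript length and mapped reads. The strand setting of the counting is not given in the sources used here. Of 30 libraries 29 were used, since a 14.5 dpp library that the labels call an outlier is listed at 0 for all 17322 genes. Read counts were not used, so the precision that depth gives is unknown. Of the gene identifiers, 17172 were found in a RefSeq table (GRCr8).

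FPKM were transformed to log2(FPKM + 1) and limma 3.58.1 in R 4.3.3 tested the genes whose median reached 0.5 FPKM in a compared group, with Benjamini-Hochberg adjustment over all of them. Genes were called where the adjusted p-value did not exceed 0.05 and the medians differed at least 2-fold, or a difference of changes of at least 1 for the interaction. D16, D22 and D28 against 14.5 dpp used a fit of 4 groups, consecutive ages the 6 ages, consecutive culture times 8.5 dpp and the 4 times, the interaction its own 4 groups, and the others 2 groups. The fits were tested on simulated data. Labels do not say that same-numbered libraries share animals, and p-values measure the spread between these samples.

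The members and all gene lists were chosen with earlier results of these data known. Within each role, the member with the highest mean and the one with the largest change at D28 against 14.5 dpp are given by library, with members called against their role, and up to 4 genes of each pathway list with the smallest adjusted p. Tk1, Rfc1 and other genes outside this rule were chosen after their values were seen. Mcm9, Ticrr, Topbp1, Atad5, Dna2, Rnaseh2c, Chaf1a, Rif1, E2f2, E2f5, E2f8, Cdkn2d and the markers Sall4, Stra8 and Hba1 were not analysed here. Alternatives changed the pseudocount, the filter, the scaling, the groups in the fit, the fold minimum, the prior variance, the replicate block and the test, and left out each library. Counts over members above 0 in every library were added after seeing the data. Figures were drawn with matplotlib in Python.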

Additional observations from a re-analysis of the deposited data

Results flagged for a closer look

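The difference between the change from D6 to D28 in culture and the change from 14.5 to 36.5 dpp in the animal passed the interaction test (limma, adjusted p of at most 0.05 and a difference of at least 1 on the log2 scale) for 24 of 38 members. By the same rule 38.4% of all genes had a positive and 19.2% a negative difference, and the median over all genes was 0.63. The difference was negative for Rfc4 (-1.84) and Prim2 (-1.33), and positive for the other 22. Among the licensing factors it was 1.10 for Orc6, 1.55 for Orc1 and 1.79 for Cdt1. In the MCM ring it was 1.59 for Mcm5, 1.65 for Mcm6, 1.99 for Mcm3, 2.62 for Mcm4 and 3.05 for Mcm2, and among the helicase partners 1.46 for Mcm10 and 1.68 for Gins3. Prim1 was at 1.07, Pola1 at 1.62, Pole at 1.77 and Pold1 at 2.75. In the clamp loader Rfc3 was at 1.34 and Rfc5 at 1.90. Fen1 was at 1.67, Rpa3 at 1.496, Rpa2 at 1.55, Tk1 at 1.93 and Tyms at 2.78. Rpa1, at 3.44, is listed at 0 in all D6 libraries and has no reading beyond that. With the libraries scaled by the median of ratios 11 positive and 7 negative differences were called, and those of Orc6 and Prim1 went down to 0.26 and 0.21. Over all genes 40.4% of the differences called were then positive.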

How the results depend on the processing

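Read depth is unknown, and low members such as Cdc45, Rpa1, Rrm2 and Pole2 with listed zeros limit what can be said of them. Without the 2-fold minimum the number of members called went from 13 to 31 at D16, 13 to 30 at D22 and 15 to 34 at D28 against 14.5 dpp, from 2 to 5 at D6 against 14.5 dpp, from 7 to 16 at D16 against 24.5 dpp, from 15 to 29 at D6 against 8.5 dpp and from 2 to 21 at D16 against D6, and for the in vivo steps in order of age from 6 to 19, 9 to 23, 2 to 11 (30.5 to 36.5 dpp) and 5 to 15. For D16 against 24.5 dpp, D6 against 8.5 dpp and these in vivo steps, the share of all genes without the minimum is not given. Those numbers therefore say nothing particular to the members. Median-of-ratios scaling gave 15 in place of 25 members at D28 against 36.5 dpp, 10 for 6 from 8.5 to 14.5 dpp, 7 for 22 from 24.5 to 30.5 dpp (quantile normalization 10), 1 for 2 from 30.5 to 36.5 dpp and 2 for 5 from 36.5 to 53.5 dpp (quantile normalization 1). It shifted the median of all genes by 0.17 from 30.5 to 36.5 dpp and by 0.26 from 36.5 to 53.5 dpp (quantile normalization 0.20). The share of all genes called under each scaling is not given, so these counts of members cannot be set against it. The 2 members called at D6 against 14.5 dpp became 1 with a pseudocount of 0.1, without a filter, with median-of-ratios scaling and with the replicate block, and 0 over members above 0 in every library, a count that was also 1 from 30.5 to 36.5 dpp.

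Leaving out 1 library at a time gave 9 to 15 members at D16, 9 to 14 at D22, 13 to 18 at D28 and 1 to 3 at D6 against 14.5 dpp, with D6 at 1 without the first 14.5 dpp testis. It gave 6 to 8 at D16 against 24.5 dpp, 20 to 23 at D22 against 30.5 dpp, 23 to 25 at D28 against 36.5 dpp, 12 to 15 at D6 against 8.5 dpp, 2 to 3 at D16 against D6, 0 for the later culture steps and 23 to 25 for the interaction. For the in vivo steps in order of age it gave 4 to 10 (10 without the first 14.5 dpp testis), 7 to 8, 17 to 23, 1 to 2 (1 without the first 30.5 dpp or the third 36.5 dpp testis) and 3 to 7 (3 without the first 53.5 dpp testis). The log2 change of Pola2 at D28 against 14.5 dpp ranged from -0.72 to 0.10, turning positive without the first 14.5 dpp testis (adjusted p = 0.645 by limma), and the cause was not tested. For single members at D28 against 14.5 dpp, 520 values under the alternatives kept direction and side of the threshold, 32 newly passed it and 15 no longer did. Same-numbered libraries deviated together only weakly: over 108 pairs r had a median of 0.011 and ranged from -0.14 to 0.22, with 10 above 0.1. Over 216 differently numbered pairs r had a median of -0.007 and ranged from -0.33 to 0.31, with 10 above 0.1. Whether libraries shared litters or culture days was not tested. With the replicate block, 15 members were called at D28 against 14.5 dpp, 26 at D28 against 36.5 dpp and 24 for the interaction.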
